A study of Homo sapiens with 38 samples.

Results

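GAS6, PROS1, AXL, MERTK, TYRO3 and GAS1 were described in human IMR90 fibroblasts across 4 growth states and 3 hairpins. The 6 genes were chosen by symbol, with earlier results of these data known, from the 19775 genes that at least 1 probe set of the array named alone. They had 13 probe sets. GAS6, AXL, GAS1 and PROS1 were among the 8511 genes tested, which had a log2 value above 5 on at least 2 arrays of the main experiment, and MERTK and TYRO3 did not reach that level on any array. The 4 tested genes had 6 probe sets above this level.

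GAS6 and PROS1 (protein S) are secreted, vitamin K dependent proteins and the ligands of the TAM receptors, the tyrosine kinases TYRO3, AXL and MERTK. GAS6 binds all of these receptors, whereas protein S acts on TYRO3 and MERTK and is also an anticoagulant cofactor in plasma. GAS6 and GAS1 take their names, growth arrest-specific, from cDNA clones of transcripts that accumulated in serum-starved mouse fibroblasts. GAS1 belongs to no TAM complex: it is a membrane-anchored protein that binds hedgehog ligands and resembles the receptors of the GDNF family.

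IMR90 cells are human fetal lung fibroblasts. All cells carried either the control vector, labelled MLP, or a short hairpin against RB, p107 or p130 (shRB, shp107, shp130). These hairpins are directed at the retinoblastoma family, whose proteins bind E2F factors and repress cell cycle genes. In the main experiment each of these 4 lines was profiled growing in 10% serum, in 0.1% serum, at confluence and in ras-induced senescence, which gives 16 groups of 2 arrays. A second experiment (E2) added 3 groups of 2 arrays, the vector line growing and senescent and the shRB line senescent, for 38 arrays in all. The ras and senescent states cannot be told apart, because no growing cells with ras were labelled. The labels give neither the time in each state nor whether the replicates of a group were separate cultures, so the p-values measure only the spread between these arrays. Each RNA came from a whole culture, so fewer expressing cells and less RNA per cell cannot be told apart.

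The arrays matched their labels at the targeted genes that were bright enough to read. RB1 lay between 3.64 and 6.45 on the log2 scale on the 8 shRB arrays of the main experiment, and RBL2 (p130) changed with shp130 by -2.35 to -2.88 in the 4 states. RBL1 (p107), a dim transcript here, was not called lower with shp107 in any state, with changes of -0.74, -1.30, -0.48 and -0.13 in the states as listed above, so the arrays do not show that this hairpin lowered its target. All 10 fibroblast markers passed the filter, against 0 of 5 measured blood markers, 1 of 7 epithelial and 2 of 7 endothelial ones. The confluent vector replicates stood furthest apart of all groups, with an SD of their difference over tested genes of 0.794, followed by senescent shp107 at 0.659, against 0.177 to 0.543 in the other groups. Calls that were lost or gained without one of these arrays are given below.

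The 250 bases before the RefSeq start site (GRCh38.p14) are shown for GAS6, AXL and GAS1. Over the 16 group means of the main experiment GAS6 correlated with AXL at r = 0.917 and with GAS1 at 0.549. Capitals mark the GC box GGGCGG on either strand, read as CCGCCC on the other, a motif bound by Sp1.
GAS6 promoter, minus strand, chr13:113864077-113864326: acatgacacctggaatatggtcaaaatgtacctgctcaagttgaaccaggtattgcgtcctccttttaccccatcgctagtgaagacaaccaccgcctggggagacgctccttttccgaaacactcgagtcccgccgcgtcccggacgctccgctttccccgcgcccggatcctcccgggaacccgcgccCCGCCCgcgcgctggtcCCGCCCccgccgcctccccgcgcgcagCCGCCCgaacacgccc
AXL promoter, plus strand, chr19:41218973-41219222: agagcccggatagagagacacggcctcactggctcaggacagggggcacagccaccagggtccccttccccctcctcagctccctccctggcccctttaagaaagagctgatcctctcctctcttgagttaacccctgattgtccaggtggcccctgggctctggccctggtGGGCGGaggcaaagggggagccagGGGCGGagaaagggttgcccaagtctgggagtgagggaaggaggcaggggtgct
GAS1 promoter, minus strand, chr9:86947507-86947756: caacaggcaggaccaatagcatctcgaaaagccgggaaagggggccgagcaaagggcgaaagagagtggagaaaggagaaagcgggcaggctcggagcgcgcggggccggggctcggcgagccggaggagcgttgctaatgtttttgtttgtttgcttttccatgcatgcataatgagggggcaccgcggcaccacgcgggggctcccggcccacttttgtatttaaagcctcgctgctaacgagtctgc
GAS6 held 3 GC boxes and 31 CpG dinucleotides in this window, and AXL held 2 boxes and 4 CpG. GAS1 held no box and 21 CpG. Over all 35116 promoters of that length, 42.6% held a GC box and the median CpG count was 11. PROS1 had 2 boxes, MERTK 4 and TYRO3 3. None of the 6 windows held the E2F motif (TTTCCCGC, TTTCGCGC, TTTGGCGC or TTTGCCGC) or the AP-1 motif (TGAGTCA or TGACTCA) on either strand, which 2.8% and 4.2% of all promoters held. These matches describe letters in the window only, and whether they bear on the correlations above was not tested. The genes themselves lie at chr13:113820549-113864076 (GAS6), chr19:41219223-41261766 (AXL) and chr9:86944362-86947506 (GAS1).

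The 13 probe sets fell into bright and dim ones. Over the 38 arrays the main GAS6 probe set (202177_at) ranged from 5.30 to 13.03, the main AXL probe set (202686_s_at) from 7.35 to 11.79 and the GAS1 probe set 204457_s_at from 3.59 to 10.76. The only PROS1 probe set (207808_s_at) ranged from 4.45 to 6.80. The medians of whole arrays, which lie at the level of undetected transcripts, ran from 3.27 to 3.41. All 3 MERTK probe sets (2.19 to 3.34) and both TYRO3 probe sets (2.33 to 4.50) stayed near or below that level. Values of different probe sets do not compare the abundance of different genes.

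**Figure D1:**
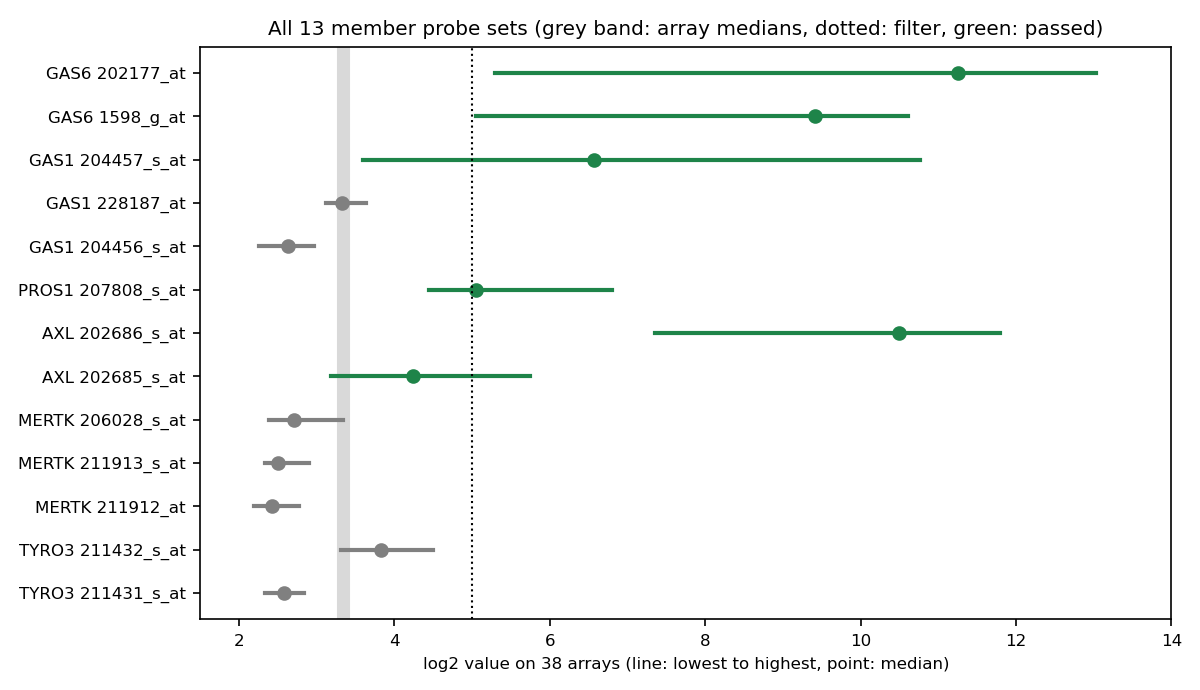
Lowest, median and highest log2 value of each of the 13 probe sets over 38 arrays; the grey band spans the array medians (3.27 to 3.41), the dotted line is the filter at 5, and probe sets that passed are green. The highest values are those of the main GAS6 and AXL probe sets, the second AXL probe set ran from 3.18 to 5.74, and every MERTK and TYRO3 value lay below 5.

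GAS6, the ligand of all 3 receptors, rose in low serum and fell in senescence. On the 8 arrays of each state its log2 value ran from 11.29 (median 11.55) to 12.05 in growing cells and from 12.37 (median 12.63) to 13.03 in low serum. It ran from 6.81 (median 9.64) to 11.69 at confluence and from 5.30 (median 7.63) to 9.41 in senescence. Every low serum array lay above every growing array and every senescent array lay below, whereas the confluent arrays overlapped the growing ones. Averaged over the 4 lines, low serum was 1.11 ± 0.19 (SE) higher on the log2 scale, 2.16-fold (limma adjusted p = 0.00012). Senescence changed GAS6 by -4.12 ± 0.19, 17.3-fold lower (adjusted p = 1.35e-13), and confluence changed by -2.08 ± 0.19 (adjusted p = 3.58e-08). These calls held without any one array.

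The confluent average of GAS6 joined opposite pictures. The confluent vector arrays read 6.81 and 7.70 and the shp130 arrays 7.66 and 8.19, against 11.36 and 12.05 and 11.29 and 11.44 in the same lines while growing. The confluent shRB arrays read 11.69 and 11.09 and the shp107 arrays 11.49 and 11.28. The first pair of lines lay in the range of senescent cells and the second pair beside growing cells. Against growing cells, GAS6 fell by 4.45 ± 0.39 in vector (adjusted p = 6.96e-08) and by 3.44 ± 0.39 in shp130 (adjusted p = 2.88e-06). With single arrays left out the vector change ran from -4.90 to -4.00. In shRB the change was -0.25 ± 0.39 (adjusted p = 0.748) and in shp107 -0.19 ± 0.39, neither of which was called. In low serum the differences in each line (1.17 in vector, 1.11 in shRB) were not called within a line, with an adjusted p of 0.0507 in vector. GAS6 was called in low serum vector under 5 of 10 alternatives (0.0372 to 0.0487), and in shp107 (0.018) and shp130 (0.00728) with only the groups compared fitted. In senescence GAS6 fell in each of the 4 lines, by 4.25 in vector, 6.10 in shRB, 2.99 in shp107 and 3.12 in shp130 (SE 0.39 each), and these calls held without any one array.

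**Figure D2:**
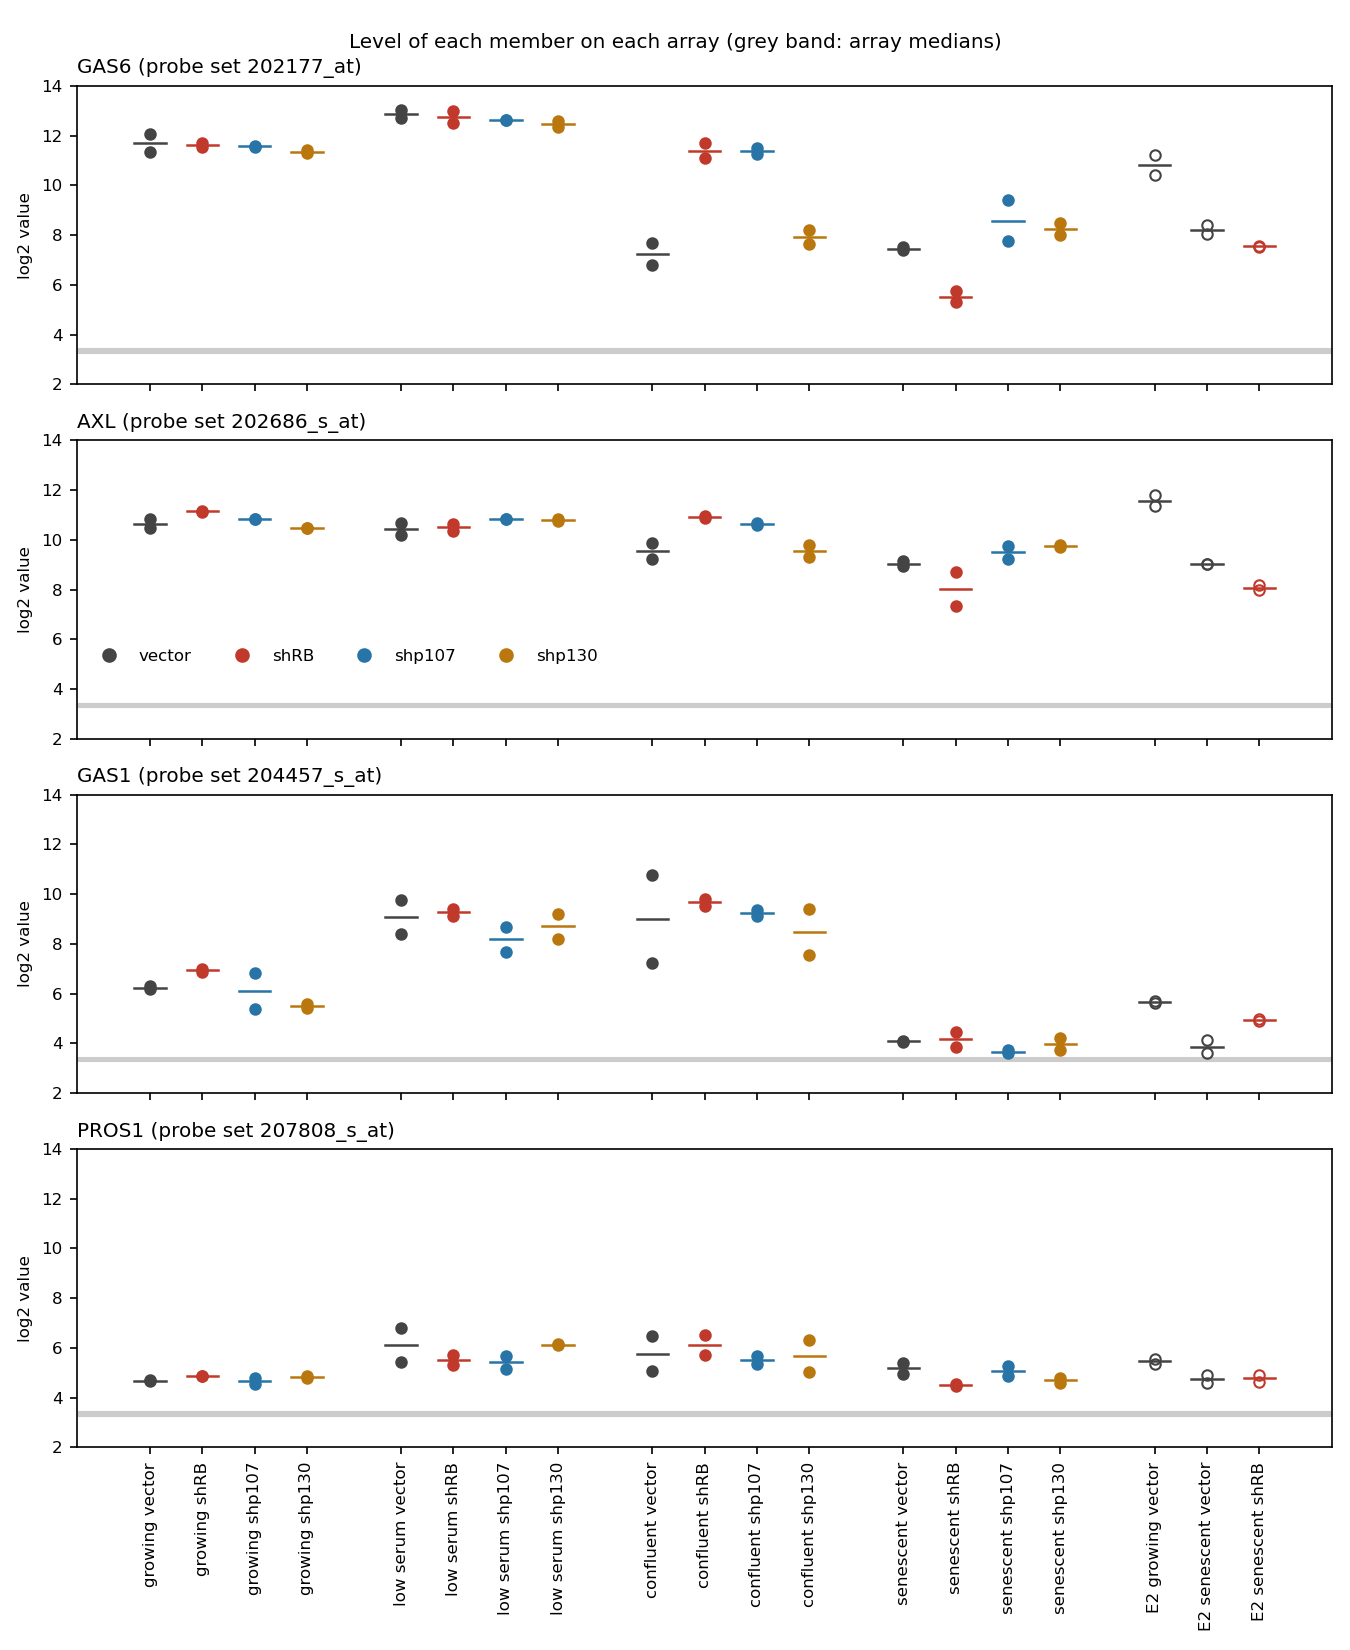
Log2 value of the 4 tested genes on each array, by group; points are arrays, short lines group means, open points the second experiment, and the grey band the array medians. GAS6 in confluent cells splits into vector and shp130 (6.81 to 8.19) and shRB and shp107 (11.09 to 11.69), while the senescent groups hold the 6 lowest GAS1 means.

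In the main experiment PROS1, the other ligand, was higher in both kinds of arrest without ras and near its growing level in senescence. The 8 growing arrays ran from 4.55 (median 4.78) to 4.89, those in low serum from 5.14 (median 5.71) to 6.80, the confluent ones from 5.05 (median 5.69) to 6.5 and the senescent ones from 4.45 (median 4.82) to 5.41. No low serum or confluent array overlapped the growing ones of the main experiment, and the senescent arrays did. The growing vector arrays of E2 read 5.35 and 5.56, within the low serum and confluent ranges, so this separation holds within the main experiment only. PROS1 rose by 1.04 ± 0.22 in low serum (limma adjusted p = 0.000755) and by 1.00 ± 0.22 at confluence (adjusted p = 0.000799), and its change in senescence was 0.10 ± 0.22 (adjusted p = 0.719). Within single lines 1 of 12 contrasts was called, low serum vector at 1.43 ± 0.43 (adjusted p = 0.0329). Its arrays read 6.80 and 5.42, and PROS1 was no longer called there without low serum vector replicate 1 (0.74, adjusted p = 0.454) or without growing vector replicate 1 (adjusted p = 0.117) or 2 (adjusted p = 0.153), nor with no filter (0.0622) or only the groups compared (0.109). PROS1 was called at confluence in vector without confluent vector replicate 1 (adjusted p = 0.00883) and in shp130 without confluent shp130 replicate 2 (adjusted p = 0.0417). These values lie close to the filter at 5. Every growing array of the main experiment lay below it and every low serum and confluent array above it. PROS1 was therefore tested only through states in which it was high, so passing the filter lends the rises no weight. The 2 averaged calls also stood with no filter. PROS1 has a near-identical pseudogene whose transcripts the probes may share.

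AXL, the one TAM receptor above the filter, fell in senescence and less at confluence. The growing arrays ran from 10.49 (median 10.82) to 11.16, the low serum arrays from 10.18 (median 10.71) to 10.85, the confluent arrays from 9.22 (median 10.24) to 10.96 and the senescent arrays from 7.35 (median 9.19) to 9.80. Senescent arrays lay below all growing arrays, and the other states overlapped them. AXL fell by 1.70 ± 0.15 in senescence (3.25-fold, limma adjusted p = 4.92e-09) and by 0.62 ± 0.15 at confluence (adjusted p = 0.00264), and its change in low serum was -0.14 ± 0.15 (adjusted p = 0.492). With the mean of both its probe sets AXL was called lower in low serum (adjusted p = 0.00428).

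The confluent groups of AXL divided as those of GAS6 did. The arrays read 9.22 and 9.87 in vector, 9.31 and 9.79 in shp130, 10.96 and 10.87 in shRB and 10.61 and 10.69 in shp107. Both shRB and both shp107 arrays lay above all vector and shp130 arrays. AXL fell at confluence by 1.11 ± 0.31 in vector (adjusted p = 0.0108) and by 0.95 ± 0.31 in shp130 (adjusted p = 0.0352), and changed by -0.23 in shRB and -0.18 in shp107, which were not called. The call in vector did not hold without growing vector replicate 2 (adjusted p = 0.119) or confluent vector replicate 1 (adjusted p = 0.13), or with only the groups compared (0.115). The shp130 call was lost without growing shp130 replicate 1 (adjusted p = 0.144) or 2 (adjusted p = 0.131) or confluent shp130 replicate 1 (adjusted p = 0.27), and with no filter (0.056) or quantile normalization (0.0712). In senescence AXL fell by 1.61 in vector, 3.12 in shRB and 1.34 in shp107 (SE 0.31 each), calls that held without any one array, and its change of -0.73 in shp130 was not called (adjusted p = 0.0726). That AXL change was called with median centring (adjusted p = 0.0355), the mean of both probe sets (0.00101) or only the groups compared (0.00958).

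Further probe sets gave a check on GAS6 and AXL. The second GAS6 probe set (1598_g_at) was called or not called as the first was in all 47 contrasts, in a fit of 15482 probe sets, and the pair correlated at r = 0.978 over 38 arrays. The sign differed where neither was called at confluence in shRB (-0.25 against 0.41) and shp107 (-0.19 against 0.24) and in the low serum effect of shp130 (-0.04 against 0.20). The second AXL probe set (202685_s_at), with values of 3.18 to 5.74, correlated with the first at r = 0.762 and differed in 10 contrasts, 5 of them called only there and 5 called only in the first. It fell at confluence in shRB (-1.44, adjusted p = 0.00139) and in shp107 (-1.20, adjusted p = 0.00668), where the main AXL probe set was not called. It showed no called difference between hairpin and vector at confluence (0.58 for both shRB and shp107, adjusted p = 0.146 and 0.179). Its confluent arrays read 3.60 and 3.84 in vector and 3.82 and 3.77 in shp130, against 4.37 and 4.23 in shRB and 4.33 and 4.26 in shp107. All these values lie below the filter at 5, which this probe set passed only on growing and low serum arrays, where it was highest. They do not overlap between the pairs of lines, but the difference was not called. The share of probe sets that separate likewise is not given here. They therefore add no weight to the main AXL probe set, on which the called difference rests alone.

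**Figure D3:**
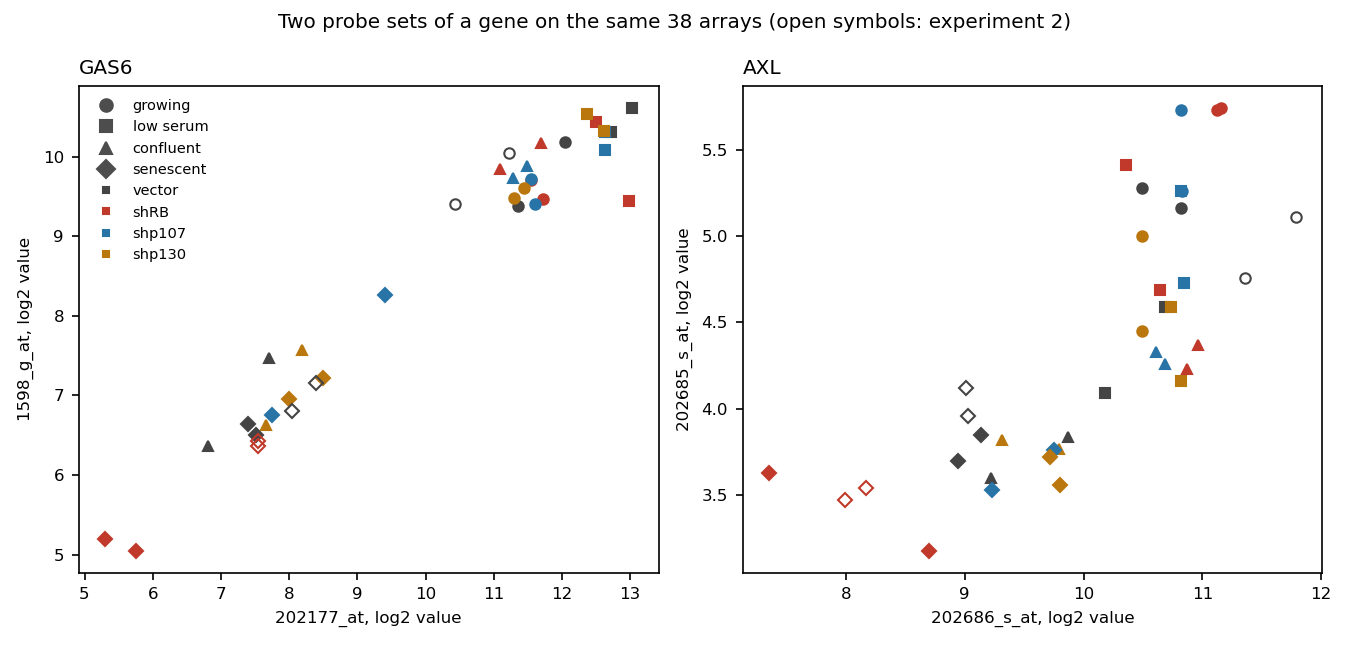
Log2 values of both probe sets of GAS6 (left) and AXL (right) on the same 38 arrays; shape gives the growth state, colour the hairpin, and open symbols the second experiment. The GAS6 points follow one line (r = 0.978), whereas for AXL (r = 0.762) the confluent shRB and shp107 arrays are high on the horizontal axis and at 4.23 to 4.37 on the vertical axis.

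MERTK and TYRO3, the remaining receptors, stayed dim in every group. In a fit with no filter, over 19775 genes and 47 contrasts, MERTK was called in 0 contrasts, with changes from -0.57 to 0.35 and a lowest adjusted p of 0.362. TYRO3 was called in 2, higher with shRB over the 4 states by 0.38 ± 0.08 (limma adjusted p = 0.00819) and lower at confluence than in low serum by 0.25 (change -0.25 ± 0.08, adjusted p = 0.0463). Its highest group means were 4.20 in low serum shRB and 4.19 in growing shRB, and its lowest was 3.41 in confluent vector, with neighbours in that order overlapping. TYRO3 also has a pseudogene, so these small differences are uncertain.

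GAS1, the hedgehog-binding protein, rose in low serum and at confluence and fell in senescence. The growing arrays ran from 5.39 (median 6.24) to 7.0, low serum from 7.69 (median 8.89) to 9.75, confluence from 7.22 (median 9.40) to 10.76 and senescence from 3.59 (median 3.97) to 4.45. None of the 3 arrested states overlapped growing cells. GAS1 rose by 2.61 ± 0.38 in low serum (6.09-fold, limma adjusted p = 1.40e-05) and by 2.90 ± 0.38 at confluence (7.48-fold, adjusted p = 2.95e-06), and fell by 2.24 ± 0.38 in senescence (adjusted p = 2.95e-05). These calls held without any one array. The senescent values lie just above the array medians, so the true depth of the fall cannot be read from them. The 2 further GAS1 probe sets, at 2.26 to 3.63 on all arrays, showed none of this, so the GAS1 results rest on 1 of 3 probe sets.

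Within single lines GAS1 was called in 9 of 12 contrasts, 6 higher and 3 lower. The confluent changes were 2.75 in vector, 2.72 in shRB, 3.14 in shp107 and 3.0 in shp130 (SE 0.75 each), and all were called. The low serum changes were 2.83 in vector and 3.22 in shp130, both called, and 2.32 in shRB and 2.06 in shp107, not called. In senescence GAS1 fell by 2.16 in vector, 2.79 in shRB and 2.46 in shp107, and its change of -1.53 in shp130 was not called. The 2 confluent vector arrays read 7.22 and 10.76, the widest pair of any group, and without replicate 2 the GAS1 change there was 0.98 (adjusted p = 0.303). That call was also lost with only the groups compared (0.23), and the senescent vector call of GAS1 with no filter (0.0857) or the mean of its probe sets (0.0866). Each of the 9 calls was lost without at least 1 of its arrays. For senescent vector and confluent shRB this was any one of the arrays compared (highest adjusted p = 0.152 and 0.151). For low serum vector it was either growing vector array or low serum vector replicate 1 (adjusted p up to 0.209), and for confluent vector also either growing vector array (0.0507 and 0.0604). For confluent shp107 it was growing shp107 replicate 2 or either confluent array (up to 0.213), and for senescent shp107 growing replicate 1 or senescent replicate 2 (up to 0.164). For low serum shp130 it was growing replicate 2 or low serum replicate 2 (up to 0.102), for confluent shp130 growing replicate 2 or confluent replicate 1 (up to 0.155), and for senescent shRB it was senescent replicate 2 (0.0604).

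**Figure D4:**
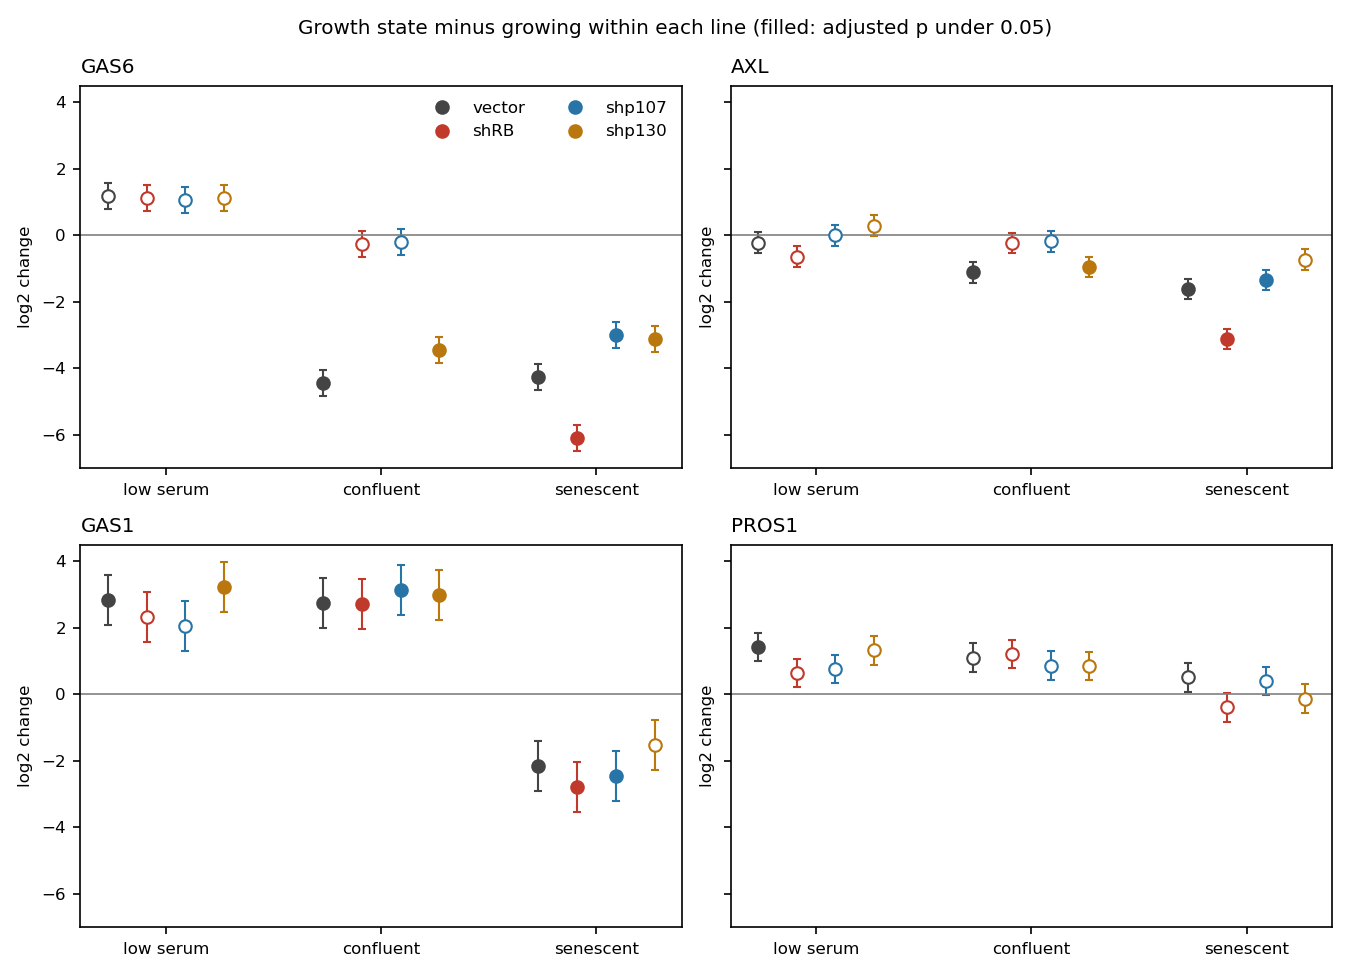
Log2 change from growing cells in each line for GAS6, AXL, GAS1 and PROS1; points are differences of means of 2 arrays, bars the SE of the limma fit, and filled points are called at an adjusted p under 0.05. At confluence the called points of GAS6 and AXL are those of vector and shp130, and GAS1 changes lie on the same side of 0 in all 4 lines in each state.

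These counts stand against a large background. Averaged over the lines, 38% of tested genes were called in low serum, 44.8% at confluence and 59.9% in senescence. The 4 members gave 3, 4 and 3 calls in these contrasts, so a call there is common, and the direction and size carry the description. The share of all tested genes whose arrays did not overlap between states is not given here, so absence of overlap does not set a member apart. Within vector 13%, 25.1% and 25.4% of genes were called in low serum, confluence and senescence, within shRB 6.43%, 11.1% and 32.8%, within shp107 6.8%, 8.15% and 38.2%, and within shp130 9.8%, 18.6% and 32.7%.

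The arrested states also differed from each other. Against low serum, with 33% of genes called, confluent cells had less GAS6 (-3.19) and less AXL (-0.47 ± 0.15, adjusted p = 0.0214), while GAS1 (0.30) and PROS1 (-0.03) were not called. The AXL call was lost without low serum vector replicate 2 (adjusted p = 0.0635), confluent vector replicate 1 (adjusted p = 0.0612) or confluent shp130 replicate 1 (adjusted p = 0.0553), and GAS1 was called without confluent vector replicate 1 (0.74, adjusted p = 0.0455). Senescent cells had less of all 4 transcripts than cells in low serum: GAS6 at -5.23, GAS1 at -4.84, AXL at -1.56 and PROS1 at -0.94, in a contrast with 65.8% of genes called. They also had less of each than confluent cells, with GAS1 at -5.14, GAS6 at -2.04, AXL at -1.09 and PROS1 at -0.91, where 62.6% of genes were called. The GAS1 changes include senescent values near the array medians, so their size is not an exact measure.

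Ordered by level, GAS6 was highest in the low serum groups (means 12.49 to 12.87), followed by the growing groups of the main experiment and confluent shp107 and shRB (11.37 to 11.71), with E2 growing vector next at 10.83. All other groups lay at 8.58 or lower, with senescent shRB last at 5.53 and apart from its neighbour. Several neighbours in this order overlapped, among them senescent vector (7.45) and confluent vector (7.26). AXL was highest in E2 growing vector (11.57), against 10.66 in growing vector of the main experiment. It was lowest in senescent shRB (8.02) and E2 senescent shRB (8.08), which overlapped. Whether the experiments were normalized together is not given, so places in these orders across experiments cannot be told apart from a difference between experiments. For GAS1 the confluent and low serum groups took the first 8 places (8.18 to 9.67), the growing groups came next, and the senescent groups, both experiments included, the last 6 (3.65 to 4.94). PROS1 ran from 6.14 in low serum shp130 to 4.50 in senescent shRB, with nearly all neighbours overlapping.

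The ligand GAS6 and its receptor AXL differed from vector with shRB and shp107 at confluence, and with shRB in senescence. At confluence GAS6 was higher than in vector by 4.13 ± 0.39 with shRB (limma adjusted p = 2.00e-07) and by 4.13 ± 0.39 with shp107 (adjusted p = 2.23e-07), and by 0.67 ± 0.39 with shp130, which was not called. With single arrays left out the shRB and shp107 differences each ran from 3.69 to 4.58. In senescence the arrays read 7.40 and 7.51 in vector, 5.76 and 5.30 in shRB, 7.75 and 9.41 in shp107 and 8.0 and 8.49 in shp130. Both shRB arrays lay below every other senescent array. GAS6 was lower with shRB by 1.92 ± 0.39 (change -1.92, adjusted p = 0.00235), and its differences of 1.13 with shp107 (adjusted p = 0.0816) and 0.79 with shp130 (adjusted p = 0.435) were not called. Without senescent shp107 replicate 1 the former was 1.96 and called (adjusted p = 0.000544). So at confluence GAS6 was higher with shRB than with vector, and in senescence it was lower.

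The AXL calls fell in the same states and were smaller. At confluence it was higher by 1.37 ± 0.31 with shRB (limma adjusted p = 0.00331) and by 1.11 ± 0.31 with shp107 (adjusted p = 0.0173), and in senescence lower with shRB (-1.02 ± 0.31, adjusted p = 0.0385). The senescent arrays of AXL read 8.94 and 9.14 in vector, 7.35 and 8.70 in shRB, 9.23 and 9.75 in shp107 and 9.72 and 9.80 in shp130. The confluent shRB call was lost without confluent vector replicate 1 (adjusted p = 0.072), and the confluent shp107 call without that array (adjusted p = 0.221) or without confluent shp107 replicate 1 (0.0742) or 2 (0.105). With only the groups compared both AXL calls were lost (0.127 and 0.162). The senescent shRB call of AXL was lost without senescent shRB replicate 1 (-0.34, adjusted p = 0.59), senescent vector replicate 1 (adjusted p = 0.0917) or 2 (adjusted p = 0.231), and without senescent shRB replicate 2 the change was -1.69. The senescent AXL call was also lost with no filter (0.0612), quantile normalization (0.0517) or only the groups compared (0.28). In growing and low serum cells no hairpin contrast of a member was called.

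**Figure D5:**
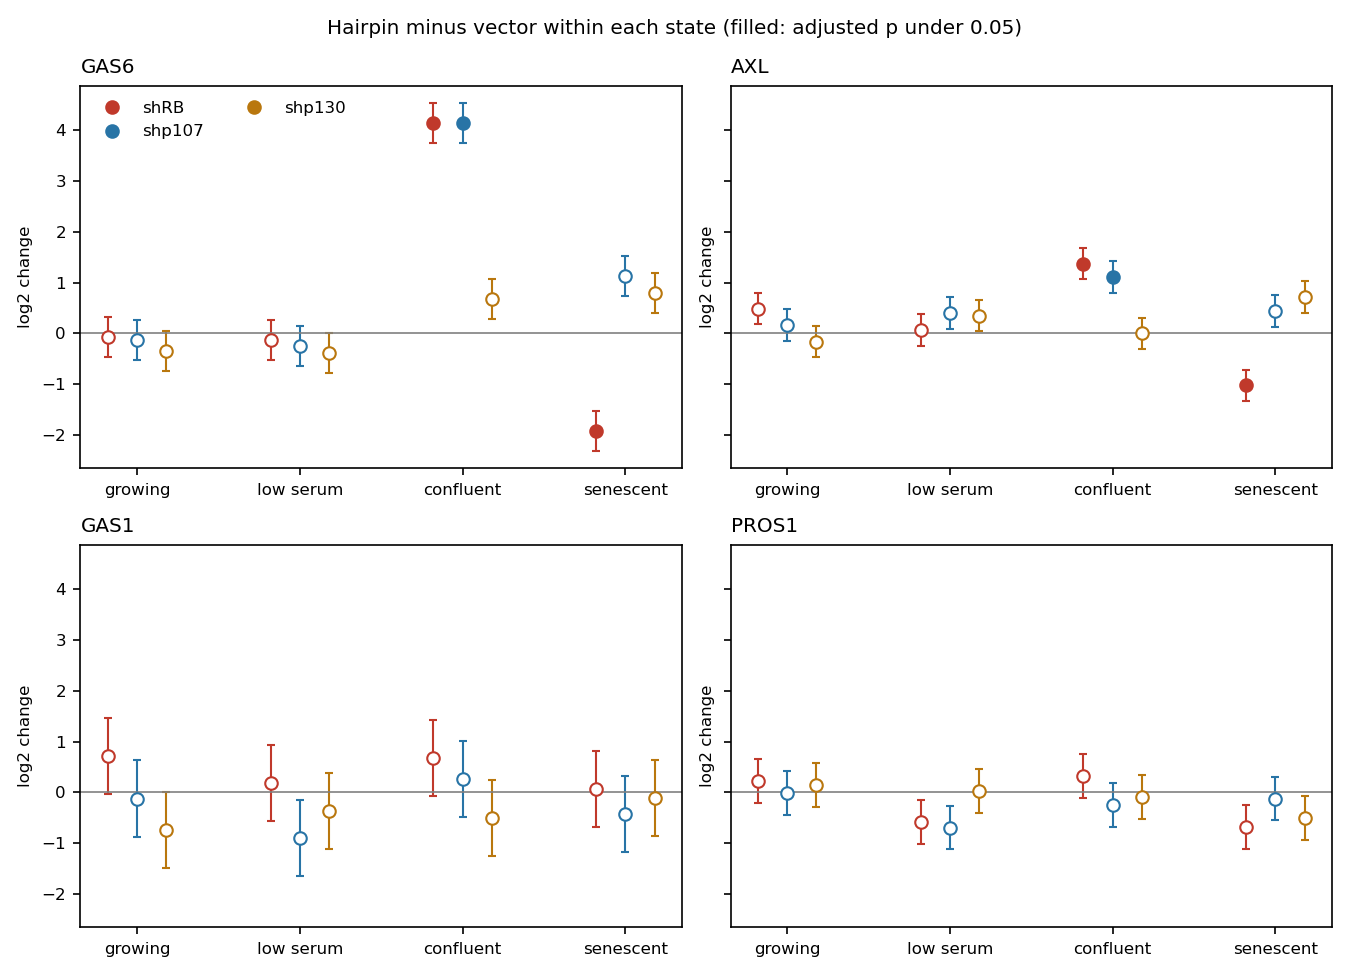
Log2 difference of each hairpin line from vector in each growth state for the 4 tested genes; points are differences of means of 2 arrays, bars the SE of the limma fit, and filled points are called at an adjusted p under 0.05. GAS6 stands at 4.13 for shRB and shp107 in confluent cells and at -1.92 for shRB in senescent cells.

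GAS1 and PROS1 were called in 0 of the 12 hairpin contrasts. For GAS1 the differences ran from -0.89 (shp107, low serum) to 0.71 (shRB, growing), each with an SE of 0.75. GAS1 was called higher at confluence without confluent vector replicate 2, by 2.45 with shRB (adjusted p = 0.00826) and 2.04 with shp107 (adjusted p = 0.0299). Few genes differed by hairpin in growing cells, with 0.188% called for shRB, 0% for shp107 (117 genes at an unadjusted p under 0.05) and 0.0587% for shp130. In low serum the shares were 0.0822%, 0.0352% and 0.27% in the same order. At confluence they were 17.5%, 13.5% and 0.0235%, and in senescence 9.75%, 7.84% and 1.67%. The confluent and senescent calls of GAS6 and AXL therefore fell in the states where many genes were called.

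Averaged over the 4 states, GAS6 was higher with shp107 by 1.22 ± 0.19 (limma adjusted p = 0.000575), a mean to which confluent cells gave the largest part. AXL was higher with shp107 by 0.53 ± 0.15 (adjusted p = 0.0442), a call lost without 12 of the 16 arrays compared (adjusted p up to 0.131), each of the vector and shp107 arrays other than growing vector replicate 2, low serum vector replicate 2, confluent vector replicate 2 and senescent shp107 replicate 1. It was lost too with no filter (0.0772), quantile normalization (0.0697) or every probe set fitted (0.0505). The share of genes called was 15.9% for shRB, 5.55% for shp107 and 1.13% for shp130. With shRB, GAS6 (0.50) was not called, but was without confluent vector replicate 2 (adjusted p = 0.0302), as was GAS1 (0.86, adjusted p = 0.0319), and AXL was called without senescent shRB replicate 1 (0.40, adjusted p = 0.0347).

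The difference between lines in the effect of a state was itself tested, and for GAS6 it was called at confluence. The confluent effect on GAS6 was 4.20 ± 0.55 higher in shRB than in vector (limma adjusted p = 6.56e-05) and 4.26 ± 0.55 higher in shp107 (adjusted p = 4.87e-05), and these calls held without any one array (3.76 to 4.65 and 3.81 to 4.71). For AXL the same differences were 0.89 ± 0.43 (adjusted p = 0.328) and 0.94 ± 0.43 (adjusted p = 0.343), not called. The senescent effect of shRB differed from vector by -1.85 for GAS6 (adjusted p = 0.1) and -1.51 for AXL (adjusted p = 0.0872), neither called. Without senescent shRB replicate 2 the AXL difference was -2.18 and called (adjusted p = 0.00169), as it was with the mean of both AXL probe sets (adjusted p = 0.0239), and without senescent shp107 replicate 1 the senescent effect of shp107 on GAS6 was called (2.09, adjusted p = 0.00598). These differences were called for few genes: for low serum, confluence and senescence 0%, 2.55% and 1.99% with shRB, 0%, 3.35% and 1.17% with shp107, and 0.0117%, 0.0117% and 0.164% with shp130. The 2 contrasts with no called gene had 307 (shRB) and 170 (shp107) genes at an unadjusted p under 0.05.

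Other marker lists also separated confluent vector and shp130 from confluent shRB and shp107. The mean of 5 myofibroblast markers was 8.96 in confluent vector and 9.28 in confluent shp130, against 11.06 in shRB and 11.04 in shp107, with growing groups at 11.27 to 11.44 and senescent groups of the main experiment at 9.0 to 9.44. The mean of 7 senescence genes was 8.72 and 9.02 in confluent vector and shp130, against 7.44 and 7.51 in shRB and shp107. It was 9.94 to 10.77 in senescent cells and 6.42 to 7.68 in growing ones. The genes were CDKN1A, CDKN2A, CDKN2B, LMNB1, IL1A, IL6 and CXCL8. LMNB1 marks senescence by its loss, so this mean joins markers of opposite direction and is not a measure of senescence. The 10 fibroblast markers averaged 10.68 and 10.61 against 11.62 and 11.50. Their growing means were 10.71 in vector, 10.72 in shp130, 11.11 in shRB and 10.97 in shp107. Unlike GAS6, this list stayed near its growing level in confluent vector and shp130 and was higher in shRB and shp107. The cycling list did not separate these groups: 5.09 in vector, 5.67 in shp130, 5.45 in shRB and 5.44 in shp107, all below the growing groups (7.30 to 8.06). The part of these lists in the GAS6 and AXL results was not tested. The 5 blood markers were at or below 4.14 on every array.

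The second experiment repeated part of the senescent comparison. GAS6 read 10.43 and 11.23 in growing vector, 8.04 and 8.39 in senescent vector and 7.55 and 7.54 in senescent shRB cells, and AXL read 11.36 and 11.79, 9.03 and 9.01, and 7.99 and 8.17. The 3 groups of 2 arrays did not overlap for either gene, and the share of all tested genes that separated likewise is not given here. In senescent vector cells GAS6 fell by 2.62 ± 0.26 (limma adjusted p = 0.000105), AXL by 2.56 ± 0.19 (adjusted p = 2.07e-05), GAS1 by 1.81 ± 0.20 (adjusted p = 0.000194) and PROS1 by 0.71 ± 0.20 (adjusted p = 0.0208), with 39.2% of genes called. The PROS1 call was lost without E2 growing vector replicate 2 (adjusted p = 0.0699) or E2 senescent vector replicate 1 (adjusted p = 0.208) or 2 (adjusted p = 0.0579). In one fit of all 38 arrays the calls of GAS1 (adjusted p = 0.0513) and PROS1 (adjusted p = 0.201) were lost.

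In senescent cells of the second experiment shRB again went with lower AXL (-0.94 ± 0.19, limma adjusted p = 0.0141), while the GAS6 change of -0.67 ± 0.26 was not called (adjusted p = 0.106). GAS6 was called there with only the groups compared fitted (adjusted p = 0.0252). The RB1 change with shRB was -2.28 there, against -5.32 in senescent cells of the main experiment. The AXL call was lost without E2 senescent vector replicate 1 (adjusted p = 0.121) or 2 (adjusted p = 0.13) or E2 senescent shRB replicate 1 (adjusted p = 0.0555). GAS1 read 3.61 and 4.12 in senescent vector and 4.91 and 4.96 in senescent shRB and was higher with shRB by 1.07 ± 0.20 (adjusted p = 0.00977), a call lost without E2 senescent vector replicate 1 (adjusted p = 0.127), in one fit of all 38 arrays (0.343) or with the mean of all GAS1 probe sets (0.113). In the main experiment the GAS1 difference was 0.07 ± 0.75. PROS1 changed by 0.03 (not called), and 20.1% of genes were called.

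Senescent shRB cells of the second experiment, set against its growing vector cells, had less GAS6 (-3.29), AXL (-3.49), GAS1 (-0.75 ± 0.20, limma adjusted p = 0.0223) and PROS1 (-0.68 ± 0.20, adjusted p = 0.0296), with 33.5% of genes called. The GAS1 call was lost without E2 growing vector replicate 1 (adjusted p = 0.059) or E2 senescent shRB replicate 1 (0.0775) or 2 (0.0641), and the PROS1 call without E2 growing vector replicate 2 (0.0867) or E2 senescent shRB replicate 1 (0.134). Both calls were also lost in one fit of all 38 arrays (0.48 for GAS1 and 0.243 for PROS1), that of GAS1 with the mean of its probe sets (0.111) and that of PROS1 with only the groups compared (0.062). In a fit of all 38 arrays, added after the data were seen, no member was called as different between experiments in its senescent effect in vector (GAS6 1.63 ± 0.54, adjusted p = 0.143, 1.5% of genes called) or its shRB effect in senescence (GAS6 1.25 ± 0.54, adjusted p = 0.293, 1.16% called). PROS1 changed by 0.51 ± 0.43 in senescent vector cells of the main experiment and by -0.71 in the second, a difference of -1.22 ± 0.58 that was not called (adjusted p = 0.366) but was with only the groups compared (adjusted p = 0.0489).

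Genes of the surrounding pathways were read from fixed lists chosen with earlier results known, averaged over the 4 lines. The shares of all tested genes called in these contrasts were 38%, 44.8% and 59.9%, and a list with a count near them, such as 10 of 17 in senescence, does not stand apart. Of 17 tested genes around TAM ligand maturation, shedding and adaptors, 3 rose and 1 fell in low serum (median change 0.10, against 0.00 over all tested genes). At confluence 5 rose and 0 fell (median 0.01 against -0.06), among them SOCS3, a feedback inhibitor of cytokine signalling, by 1.37, GGCX, the enzyme that carboxylates GAS6 and protein S, by 1.21, and ADAM17, a sheddase, by 1.09. In senescence 4 rose and 6 fell (median 0.00 against -0.11), with SOCS1 at -1.82, the PI 3-kinase subunit PIK3CB at 1.65, SOCS3 at 1.45 and TUB, described as a bridging ligand of MERTK, at -1.14.

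Thrombomodulin had the largest rise in senescence among the 5 tested genes of the list around protein S. That list also held F3 (tissue factor), which is procoagulant, so its counts are not of anticoagulant genes alone. Of 5 tested, 3 rose and 1 fell in senescence (median 0.61 against -0.11), where 59.9% of all genes were called, so the count does not stand apart. Thrombomodulin (THBD), which turns thrombin towards activation of protein C, rose by 5.18 ± 0.11 (limma adjusted p = 8.98e-20). The protein C receptor PROCR rose by 1.70 and TFPI2 by 0.61, and the tissue factor pathway inhibitor TFPI fell by 0.60. In the second experiment THBD rose by 6.37 in senescent vector cells, where 4 of 5 rose and 39.2% of all genes were called. In low serum 1 rose and 1 fell, PROCR at 0.54 and TFPI2 at -1.34, with 38% of all genes called. At confluence 3 rose and 1 fell, with 44.8% called.

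Around GAS1, 6 genes of the hedgehog and GDNF receptor list were tested. In low serum 4 rose and 1 fell (median 0.55 against 0 over all genes, 38% of which were called). The hedgehog receptor PTCH1 stood at 2.12, the GDNF co-receptor GFRA1 at 0.95, GLI3 at 0.58 and the hedgehog antagonist HHIP at -1.44. At confluence 3 rose and 1 fell (median 0.22 against -0.06, with 44.8% of all genes called), with PTCH1 at 1.22 and HHIP at -1.29. In senescence 0 rose and 2 fell (median -0.42 against -0.11, with 59.9% of all genes called), HHIP at -1.17 and the factor GLI2 at -0.81. In senescent vector cells of the second experiment all 6 fell (median -0.90 against 0.01 over all genes, 39.2% of which were called). GLI1 and the ligands SHH, IHH and DHH did not pass the filter.

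Of a list of other growth arrest-specific genes and their relatives 3 were tested: GAS7, GAS2L1 and GAS2L3. GAS2L1 and GAS2L3 stand in it as relatives of GAS2, which did not pass the filter, and not as growth arrest-specific genes themselves. GAS2L3, a cytoskeletal linker, fell in each arrest (-2.29, -1.86 and -3.18 in low serum, confluence and senescence). GAS2L1 fell in low serum (-0.93) and at confluence (-1.24) and rose in senescence (1.09), and GAS7 rose in low serum (0.36) and at confluence (0.66). Uptake of dying cells is a process in which TAM receptors act, and 12 of its listed genes were tested. Of these 3 rose and 2 fell in low serum (38% of all genes called), and 2 rose and 2 fell at confluence (44.8%). In senescence 2 rose and 7 fell (median -0.47 against -0.11, with 59.9% of all genes called), with the integrin subunit ITGB5 at 0.91 and the engulfment factor DOCK1 at -0.75. At confluence 2 of these 12 were higher and 1 lower with shRB than with vector, as with shp107, where 17.5% and 13.5% of all genes were called, among them ANXA1 at 2.13 and 2.24.

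Across the 16 group means of the main experiment GAS6 correlated with AXL at r = 0.917 and GAS1 with PROS1 at r = 0.803, while GAS6 correlated with GAS1 at 0.549 and with PROS1 at 0.328. These values describe points that share arrays and growth states. Among 3129 genes whose group means had an SD of at least 0.5, those most like GAS6 were CAMK2D (0.973), CAV1 (0.97) and PRKAG2 (0.969). CAV1 (0.928) was also among those most like AXL, after SYTL2 (0.946) and before GALNT10 (0.922). Most like GAS1 were TCEA2 (0.974), NCOA1 (0.972) and HEPH (0.971), and most like PROS1 were PIEZO2 (0.913), ZNF521 (0.908) and FAXDC2 (0.899).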

How the data were processed

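RNA of IMR90 cells was measured on 38 Affymetrix arrays; per the labels' protocols, the input was 1 µg. The authors deposited 1 table of log2 values for 54613 probe sets, and the submitters' processing notes name GCRMA. The log2 scale was read from the values, which ran from 0.86 to 13.88. GCRMA's version, and whether both experiments were normalized together, are not given in the sources used here. Genes were named from the platform annotation: 41091 probe sets named 1 gene, 1801 several and 11721 none. Each gene was represented by its probe set with the highest mean. Genes above 5 on at least 2 arrays of the main experiment were tested with limma (version 3.58.1, under R 4.3.3) on group means, the main experiment and E2 fitted apart, and Benjamini-Hochberg adjustment over 8511 genes within each contrast. Calls needed an adjusted p under 0.05. The fits had 16 and 3 residual degrees of freedom, and 2 arrays a group limit the precision. Scripts were tested on simulated data. Alternatives covered the filter, normalization, probe sets, replicate number, spread and samples fitted, and each array left out. Named genes were the members, RB1, RBL1 and RBL2, up to 4 called genes with the largest changes per list and contrast, and the 3 genes most like each tested member. The members, the lists and the tests were chosen with earlier results of these data known. Promoter sequences and gene positions came from RefSeq (GRCh38.p14), where all 6 members matched by symbol.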

Additional observations from a re-analysis of the deposited data

Results flagged for a closer look

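The effect of confluence on GAS6 differed between lines by a test of the difference itself. It was 4.20 ± 0.55 (SE) higher on the log2 scale in shRB than in vector cells (limma adjusted p = 6.56e-05), and both confluent shRB arrays read higher than both vector arrays. It was 4.26 ± 0.55 higher in shp107 than in vector cells (limma adjusted p = 4.87e-05), again with both arrays higher. Both differences share the same 4 vector arrays.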

How the results depend on the processing

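No member changed direction where it was called, under any alternative run. The 10 calls averaged over the lines, the 21 within lines, the 10 between arrests and the 2 differences of effect stayed within 1.5 times their number under every alternative other than single arrays left out. Calls of hairpins within states fell from 6 to 3 when only the groups compared were fitted. Calls of hairpins averaged over states fell from 2 to 1 with no filter, with quantile normalization or with every probe set fitted, and ran from 1 to 4 with single arrays left out. Calls in the second experiment fell from 10 to 5 in one fit of all 38 arrays and ran from 6 to 10 with single arrays left out, and the differences of effect from 2 to 4. The causes were not tested. Of the changes per gene and contrast, 172 kept their call when only the groups compared were fitted, with 9 gained and 7 lost, and 180 under quantile normalization, with 5 gained and 3 lost. Same-numbered replicates did not pair: 38 of 120 pairs of groups had deviations correlated above 0.1 (median 0.04). With a replicate block 184 of the member results kept their call and 4 gained one: GAS6 in low serum vector (adjusted p = 0.0378) and with shRB in E2 senescent cells (0.0204), and AXL in senescent shp130 (0.0479) and in the senescent effect of shRB minus vector (0.047). The limit for GAS1, PROS1, MERTK and TYRO3 is their signal over background, and for all members the 2 arrays a group.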
